A study of Mus musculus with 4 samples.

Results

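Histone acetyltransferases transfer an acetyl group from acetyl-CoA to lysines of histone tails. Acetylated tails are a mark of accessible and transcribed chromatin, and the embryo needs such chromatin when its own genome is first switched on. The enzymes form several families, and most of them work inside large complexes that decide which nucleosomes they reach. MRG proteins (MORF4-related gene proteins) are not enzymes but subunits, shared by the NuA4/TIP60 acetyltransferase complex and by the Sin3 deacetylase complex. Morf4l1 (MRG15) carries a chromodomain that binds methylated histone H3, and its relative Morf4l2 (MRGX) lacks that domain. The values below describe the RNA of 10 genes in mouse 2-cell embryos. They are the MRG genes Morf4l1 and Morf4l2, the MYST acetyltransferases Kat5 and Kat8, the acetyltransferases Hat1, Kat2a and Kat2b, the coactivators Ep300 and Crebbp, and the p160 coactivator Ncoa2. These genes were listed by name, and all 10 were found among the 30049 genes of the deposited table. They were chosen by name with earlier values of the same contrast, DMSO against control, already known, so their differences between the groups are given as a description, with no p-value.

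The embryos were wild type, of the background BDF1*BDF1 F2 (BDF1 being the cross of C57BL/6 and DBA/2 mice), and all were cultured in KSOM, a medium for preimplantation embryos. Zygotes taken 18 h after the injection of hCG were kept for 24 h in KSOM alone (control) or in KSOM with 2% dimethyl sulfoxide (DMSO), a solvent used in cryoprotectants and as a drug vehicle. The labels give 50 embryos at the 2-cell stage for each group. There were 2 libraries in each group, and whether they came from separate collections is not stated. Values are TPM, in which a gene's reads are corrected for the length of its transcripts and for the total of the library. They can therefore be put in order between genes, except where sequence shared with other genes or a doubtful row makes a level uncertain, as given below. They keep no record of depth. Summed over the table, the values came to 768174 TPM in control replicate 1, 780527 in control replicate 2, 772487 in DMSO replicate 1 and 799166 in DMSO replicate 2. These sums fall short of the fixed total to which TPM are scaled, so the table does not hold every transcript that was quantified. Each library was made from pooled whole embryos, in which fewer cells and less RNA per cell cannot be told apart.

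The libraries were checked against lists of marker genes, which, like the 10 genes, were chosen with earlier results of these data known. The 7 genes switched on at the 2-cell stage were all present, with Tcstv3 the most abundant, and together they held 709.8, 487.3, 2062 and 1499 TPM in control replicates 1 and 2 and DMSO replicates 1 and 2. limma called 4 of the 7 higher in DMSO, beside 6.42% of all genes tested. The 8 oocyte and egg genes, led by Oosp1, held 1063, 689.1, 2771 and 2153 TPM in the same order, and Bmp15 and Oosp1 were called higher. Mos, at 5.14, 5.51, 3.83 and 2.94 TPM, and Zp3, at 1.56, 2.35, 1.44 and 0.956 TPM, were lower in both DMSO libraries and not called. Nlrp5, a defining gene of the egg, was listed at 0, 0.142, 0 and 0.129 TPM. The housekeeping gene Actg1, looked up after the values had been seen, was likewise listed at 0, 0.538, 0 and 0 TPM. A value near 0 in this table is therefore not read below as absence of the RNA. Of 11 cumulus and granulosa cell genes, 8 were under 1 TPM in every library, and Amh and Inhba were listed at 0 throughout. Their sum, 39.6, 31.4, 11.0 and 19.2 TPM, came mostly from Amhr2, which was at 36.8, 29.7, 8.29 and 16.5 TPM and was called lower. Cyp19a1, at 0.422, 0.494, 1.26 and 1.08 TPM, was higher in both DMSO libraries and was not tested. The 4 sperm genes, led by Prm2 and with Tnp2 at 0, held 2.84, 3.38, 13.4 and 8.48 TPM, and Prm2 and Tnp1 were called higher. The 5 blood genes, led by Hba-a2 and with Hbb-bt at 0, held 11.0, 4.11, 10.7 and 16.2 TPM. The 2 oviduct genes held 121.6, 112.1, 62.3 and 89.1 TPM, led by Epcam, which was called lower. The other, Ovgp1, was at 17.9, 19.5, 26.2 and 33.2 TPM, higher in both DMSO libraries and not called. The 5 blastocyst genes, led by Nanog, held 20.99, 14.3, 25.7 and 24.7 TPM, and none was called. Nanog, Gata3 and Cdx2 were higher in both DMSO libraries, and Krt8, at 6.20, 4.47, 2.68 and 3.53 TPM, was lower in both. Genes encoded in the mitochondrial DNA took 10.8% and 12.4% of the TPM in the table in control embryos and 15.3% and 21.7% in DMSO-treated embryos. The part of these markers and of the mitochondrial share in the results below was not tested.

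Morf4l1 and Morf4l2 encode closely related proteins, so it matters whether reads can be assigned to either. An alignment of their longest coding sequences, of 1089 and 867 bases, paired 806 bases, of which 621 (77.0%) were identical. The longest identical run was 17 bases, and no word of 31 bases, the length by which reads are assigned to transcripts, was shared. The stretch around that run is printed from the transcripts of GENCODE M21 (GRCm38), with the identical run in capitals and 15 bases on either side. It spans coding bases 574 to 620 of Morf4l1 and 352 to 398 of Morf4l2.
Morf4l1: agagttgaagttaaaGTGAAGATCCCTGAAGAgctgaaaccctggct
Morf4l2: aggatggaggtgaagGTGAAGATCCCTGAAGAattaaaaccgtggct
The same held for the other related pairs. Kat2a and Kat2b were identical at 70.9% of aligned coding bases, Ep300 and Crebbp at 68.6%, and Kat5 and Kat8 at 60.4%, and none of these pairs shared a word of 31 bases. Sequence shared with other genes was more common. Of the words of Morf4l1, 52.1% also occur in transcripts of other genes, most of them processed pseudogenes, against 18.1% for Morf4l2, 17.3% for Kat8, 16.1% for Kat5 and 15.1% for Kat2b. For Ep300, Crebbp and Ncoa2 the share was at most 1.06%, and for Hat1 and Kat2a it was 0%.

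Promoter windows of 250 bases before a transcription start were given in the RefSeq promoter table (GRCm38.p6) for 9 of the 10 genes, not for Ncoa2. They were searched on both strands for the CCAAT box (letters CCAAT), the GC box (letters GGGCGG), the ETS core (letters CCGGAA), the E-box (letters CACGTG), the CRE half-site (letters TGACG) and the TATA box (letters TATAAA). The window of Morf4l2 at its most upstream start and that of Kat2a are printed because these genes differed between the groups in opposite directions and their windows hold almost no annotated exon. Capitals mark the matches. The Morf4l2 window lies at chrX:136743687-136743936 on the minus strand, and the Kat2a window at chr11:100712468-100712717, also on the minus strand.
Morf4l2: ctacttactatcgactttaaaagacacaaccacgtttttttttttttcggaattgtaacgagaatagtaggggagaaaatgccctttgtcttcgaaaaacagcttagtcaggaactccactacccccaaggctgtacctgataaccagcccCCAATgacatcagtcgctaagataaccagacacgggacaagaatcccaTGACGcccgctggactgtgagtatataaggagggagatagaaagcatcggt
Kat2a: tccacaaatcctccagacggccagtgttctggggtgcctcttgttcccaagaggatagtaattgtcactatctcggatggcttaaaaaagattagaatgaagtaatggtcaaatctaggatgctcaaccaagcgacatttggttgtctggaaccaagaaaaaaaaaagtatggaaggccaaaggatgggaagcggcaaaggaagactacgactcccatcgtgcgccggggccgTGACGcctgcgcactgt
The Morf4l2 window held 1 CCAAT and 1 TGACG, and the Kat2a window 1 TGACG. Of all 32851 windows of this length in the table, 33.8% hold CCAAT and 17.8% hold TGACG. GC content was 44.8% and 48.8%. RefSeq gives Morf4l2 4 windows in all, and the other 3 hold other matches, among them GC boxes, an E-box and further CCAAT boxes. The matches describe the letters of these windows, and no binding was measured.

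Of the 10 genes, Morf4l2 had the widest separation of the groups. It stood at 3.72 and 2.56 TPM in control replicates 1 and 2 and at 81.1 and 48.3 TPM in DMSO replicates 1 and 2. Both DMSO libraries lay far above both control libraries, and the closest pair still differed 13.0-fold. The group means were 3.14 ± 0.827 TPM and 64.7 ± 23.2 TPM (SD, n = 2 each), a ratio of 20.6. On the scale of log2(TPM + 1), used for all fold changes here, the difference was 3.96 with a limma standard error of 0.36. Differences of genes with low TPM are understated on this scale. Among the 12038 genes that averaged 1 TPM or more and were tested, its control mean lay at the 28.8th percentile and its DMSO mean at the 86.4th. The gene lies on chromosome X from 136732942 to 136743690 (minus strand). Its start overlaps the opposite-strand transcript BC065397, and the strand of the libraries is not stated.

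Morf4l1, on chromosome 9 from 90091665 to 90114774, went the other way by a much smaller step. It was at 199.6 and 151.3 TPM in control and at 138.9 and 103.1 TPM in DMSO-treated embryos. The groups did not overlap, but control replicate 2 and DMSO replicate 1 were only 1.09-fold apart. The means were 175 ± 34.2 and 121 ± 25.3 TPM (SD, n = 2 each), and the log2 difference was -0.53 (standard error 0.29). It was -0.34 without control replicate 1, -0.73 without control replicate 2, -0.75 without DMSO replicate 1, -0.32 without DMSO replicate 2 and -0.27 under quantile normalization. With the replicate number as a block, although no label gives it a meaning, the standard error was 0.17 and limma called Morf4l1. Its level is uncertain, since reads may be split with its pseudogenes. With Gm5564 and Gm5539, the near-identical copies in the table, the sums were 216.3, 161.5, 157.8 and 111.1 TPM, and the groups again did not overlap.

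Expressed as a share of the MRG pair, Morf4l2 held 1.83% and 1.66% of the TPM of Morf4l1 plus Morf4l2 in the control libraries. In the DMSO libraries it held 36.9% and 31.9%. The sum of the pair was 203.3 and 153.8 TPM in control embryos and 220.0 and 151.5 TPM in DMSO-treated embryos, so the groups overlapped in the sum while they were wide apart in its make-up.

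**Figure D1:**
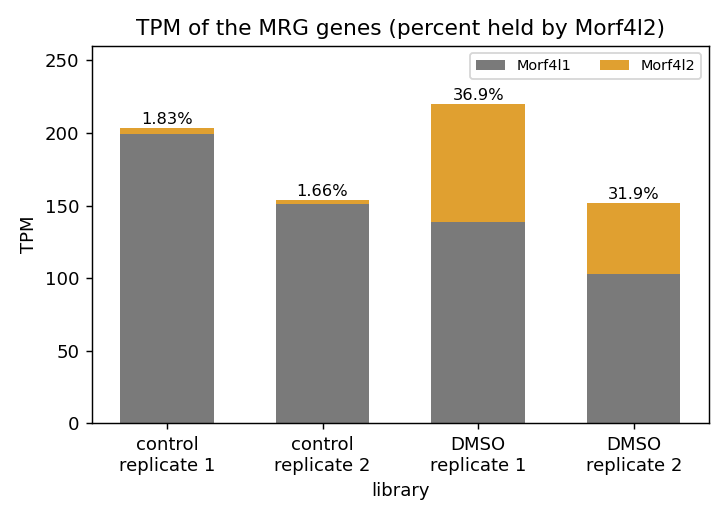
Stacked bars give the TPM of Morf4l1 (grey) and Morf4l2 (orange) in each of the 4 libraries, on a linear axis from 0, with the percent held by Morf4l2 printed above. Morf4l2 is a thin band of 1.83% and 1.66% in the control bars and a broad one of 36.9% and 31.9% in the DMSO bars, while the bar heights of the groups overlap.

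Kat5 (TIP60) is the catalytic subunit of NuA4/TIP60 and acetylates histones H4 and H2A. It was at 7.98 and 4.26 TPM in control and at 4.95 and 3.09 TPM in DMSO-treated embryos. The groups overlapped, and the log2 difference was -0.48 (standard error 0.40). It ranged from -0.09 without control replicate 1 to -0.87 without control replicate 2, and was -0.75 without DMSO replicate 1 and -0.21 without DMSO replicate 2. Kat5 (chromosome 19 from 5603014 to 5610237) overlaps the opposite-strand gene Rnaseh2c over 4006 bases. Rnaseh2c was at 2.82, 2.11, 6.04 and 10.4 TPM, and reads of these genes cannot be told apart where they overlap, so both levels are uncertain. Kat8 (MOF) acetylates histone H4 within the MSL and NSL complexes. It lay at 23.8 and 25.1 TPM in control embryos and at 15.4 and 18.0 TPM in DMSO-treated embryos. The libraries of each group were close together and the groups did not overlap, with a log2 difference of -0.53 (standard error 0.28). Kat8 lies on chromosome 7 from 127912516 to 127925837.

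Hat1 acetylates newly made histone H4 before its deposition on DNA. Its RNA was at 46.4 and 75.6 TPM in control replicates 1 and 2 and at 14.9 and 19.0 TPM in DMSO replicates 1 and 2. The lowest control library was 2.44-fold above the highest DMSO library. The mean was 3.60-fold higher in control embryos (61.0 ± 20.6 against 16.9 ± 2.91 TPM, SD, n = 2 each), and the log2 difference was -1.76 (standard error 0.33). No transcript of another gene shares a word of 31 bases with Hat1, which lies on chromosome 2 from 71388958 to 71441622.

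Kat2a (GCN5) and Kat2b (PCAF) are alternative catalytic subunits of the SAGA and ATAC complexes. Kat2a, on chromosome 11 from 100704746 to 100712465, was at 26.6 and 25.0 TPM in control and at 10.4 and 11.9 TPM in DMSO-treated embryos. The libraries within a group differed little, and the means of 25.8 ± 1.13 and 11.2 ± 1.06 TPM (SD, n = 2 each) stood in a ratio of 2.30. The log2 difference was -1.14 (standard error 0.28). Kat2b, on chromosome 17 from 53566861 to 53672720, was low everywhere, at 1.46 and 0.545 TPM in control and 1.23 and 0.722 TPM in DMSO-treated embryos. Its mean over the 4 libraries was under 1 TPM, so it was not among the genes tested. The pseudogene Kat2b-ps, in which 15.1% of the words of Kat2b also occur, was listed at 17.4, 14.5, 10.6 and 8.18 TPM. The level of Kat2b is therefore uncertain. Summed with Kat2b-ps, its log2 difference moved from 0.01 to -0.66. Kat2b held 5.22% and 2.14% of the TPM of Kat2a plus Kat2b in control and 10.5% and 5.71% in DMSO-treated embryos. These shares did not overlap between the groups, by a narrow margin, and they carry the uncertainty of Kat2b.

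Ep300 (p300) and Crebbp (CBP) are broad acetyltransferases recruited to enhancers by transcription factors. Ep300, on chromosome 15 from 81585351 to 81652077, was at 8.07 and 13.6 TPM in control and 8.66 and 14.2 TPM in DMSO-treated embryos. Crebbp, on chromosome 16 from 4081328 to 4213997, was at 41.7 and 25.2 TPM in control and 58.9 and 29.6 TPM in DMSO-treated embryos. Both genes overlapped between groups. Their log2 differences were 0.08 (standard error 0.39) and 0.36 (standard error 0.42). Leaving out single libraries turned both directions, with Ep300 from -0.26 to 0.42 and Crebbp from -0.13 to 0.84. In each group the replicates stood in opposite order for these genes, with Crebbp higher and Ep300 lower in replicate 1. The share of Crebbp in the pair was accordingly 83.8% and 65.0% in control and 87.2% and 67.6% in DMSO-treated embryos.

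Ncoa2 (GRIP1/TIF2) is a p160 coactivator of nuclear receptors that recruits CBP and p300. It stood at 1.43 and 1.64 TPM in control and at 8.31 and 5.19 TPM in DMSO-treated embryos. The groups were 3.16-fold apart at their closest libraries. The mean went from 1.54 ± 0.151 to 6.75 ± 2.21 TPM (SD, n = 2 each), a ratio of 4.40, and the log2 difference was 1.58 (standard error 0.36). Ncoa2 lies on chromosome 1 from 13139105 to 13374083 and, on its control level, was at the 14.1th percentile of the genes tested, against the 46.1th in DMSO-treated embryos.

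**Figure D2:**
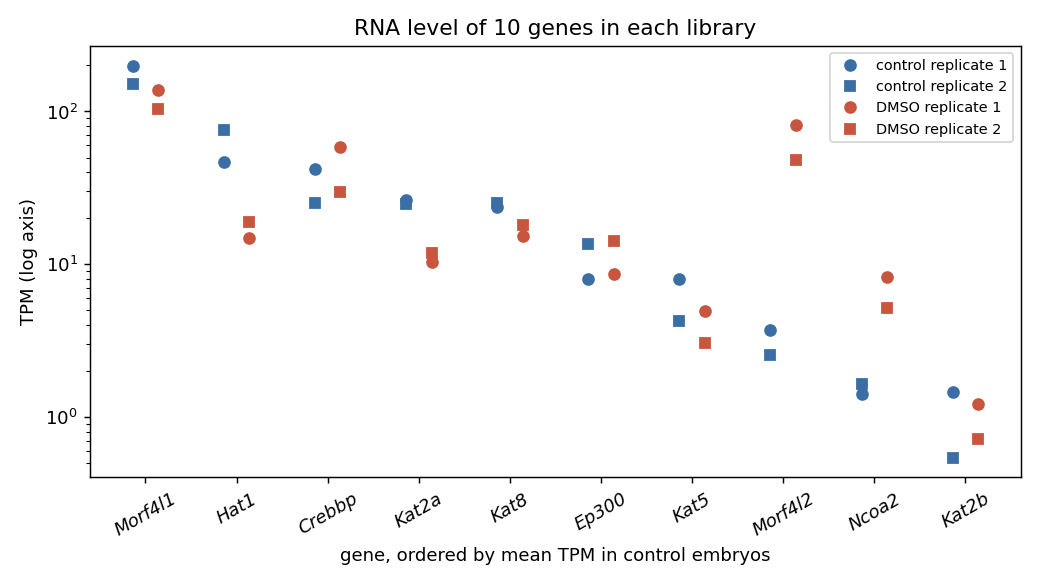
Each point is the TPM of a gene in 1 library on a log axis, with genes ordered by their control mean, control libraries in blue, DMSO libraries in red, circles for replicate 1 and squares for replicate 2. The DMSO points of Morf4l2 and Ncoa2 lie above the control points, those of Hat1, Kat2a, Kat8 and Morf4l1 lie below, and the points of Kat5, Kat2b, Ep300 and Crebbp overlap.

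By mean TPM the order in control embryos was Morf4l1, Hat1, Crebbp, Kat2a, Kat8, Ep300, Kat5, Morf4l2, Ncoa2 and Kat2b. The ranges of Crebbp, Kat2a and Kat8 overlapped from neighbour to neighbour, as did those of Ncoa2 and Kat2b, and the other neighbours were apart. In DMSO-treated embryos the order was Morf4l1, Morf4l2, Crebbp, Hat1, Kat8, Ep300, Kat2a, Ncoa2, Kat5 and Kat2b. There the neighbours Morf4l2 and Crebbp, Hat1 and Kat8, and Ep300 and Kat2a overlapped. Morf4l2 moved from rank 8 to rank 2 and Hat1 from rank 2 to rank 4. These ranks are those of the listed values, and the levels of Morf4l1, Kat5 and Kat2b are uncertain, as given above. The 8 acetyltransferases and coactivators other than the MRG genes summed to 157.5 and 170.8 TPM in control and to 122.8 and 101.8 TPM in DMSO-treated embryos, which did not overlap. Without Hat1 the sums of the other 7 were 111.1 and 95.2 TPM in control and 107.9 and 82.8 TPM in DMSO-treated embryos, which overlapped.

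Across all genes tested, limma called 2470 of 12038, or 20.5%, at a Benjamini-Hochberg adjusted p under 0.05. Of all genes tested 6.42% were called higher and 14.1% lower in DMSO-treated embryos. Of the 10 genes, 9 entered that fit and 4 fell among the genes called, Morf4l2 and Ncoa2 higher and Hat1 and Kat2a lower. Since the genes were chosen with this contrast known, this count is no test of them and nothing is read from it. The groups did not overlap for 6 of the 10 genes, 2 higher and 4 lower, beside 69.8% of all genes tested. The median log2 difference was -0.24 over the 10 genes, -0.48 over the 9 of them tested and -0.09 over all genes tested. Under quantile normalization it was -0.27 over the 9 and 0.005 over all genes tested. With 2 libraries against 2, an exact two-sided permutation test of any single gene cannot go below p = 0.33. The calls also rest on having all libraries: without control replicate 1, control replicate 2 or DMSO replicate 1, limma called 0 genes in the whole table, with 3745, 2602 and 3078 at an unadjusted p under 0.05. The log2 difference of Morf4l2 was then 4.16, 3.75 and 3.59, that of Hat1 -2.10, -1.41 and -1.59, that of Kat2a -1.09, -1.18 and -1.05, and that of Ncoa2 1.52, 1.64 and 1.29. Without DMSO replicate 2, 1883 genes were called, and Kat2a, at -1.23, was not among them.

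**Figure D3:**
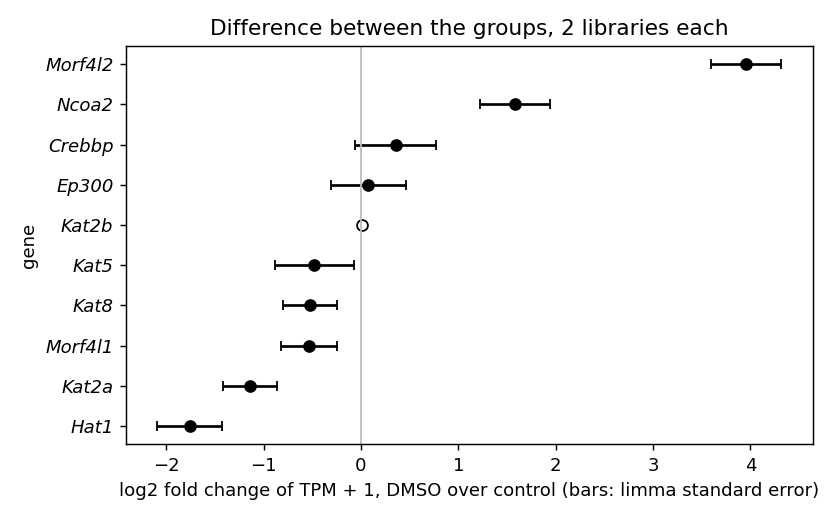
Points give the difference between DMSO and control in log2(TPM + 1) for each gene and bars the limma standard error, from 2 libraries a group. The points run from Hat1 at -1.76 and Kat2a at -1.14 to Ncoa2 at 1.58 and Morf4l2 at 3.96, and the open circle is Kat2b, which was outside the fit and has no bar. The genes were chosen with this contrast known, so the plot is a description.

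The RNAs whose values over the 4 libraries ran most like those of Morf4l2, Hat1 and Ncoa2 were found by the Euclidean distance between log2(TPM + 1) values centred on each gene's mean. Nearest to Morf4l2 were the pseudogene Gm12396 (distance 0.702), Id2 (0.726) and Zfp791 (0.731). Id2, an inhibitor of basic helix-loop-helix factors, was at 6.09, 5.19, 73.6 and 54.6 TPM. Nearest to Hat1 were Exosc7 (0.0542), Gucy2e (0.0571) and Srm (0.113), all much closer than any neighbour of Morf4l2. Exosc7, an RNA exosome subunit, was at 67.7, 104.7, 21.5 and 27.8 TPM. Nearest to Ncoa2 were Tgfb3 (0.104), Cmc4 (0.159) and the pseudogene Gm13988 (0.161), with Tgfb3 at 1.39, 1.36, 7.83 and 4.95 TPM.

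The partners of these proteins were read next, from lists of genes named by complex. Of 124 partner genes, 121 were in the table and 116 were tested, and 23 of these, or 19.8%, were called, beside 20.5% of all genes. DMSO-treated embryos were lower for 20 of the 23 and higher for 3. Among all genes called, 1697 were lower and 773 higher. Under quantile normalization the partner split was 10 lower and 5 higher, and without mitochondrial genes 11 lower and 3 higher. The median log2 difference of the partner genes was -0.37, beside -0.09 over all genes. It was -0.16 under quantile normalization, beside 0.005, and -0.27 under median-ratio scaling, beside -0.007. No partner gene was called by limma without control replicate 1, control replicate 2 or DMSO replicate 1, when 27, 22 and 29 of them had an unadjusted p under 0.05, and without DMSO replicate 2 the count was 15. All adjusted p-values below are limma's, Benjamini-Hochberg adjusted over the 12038 genes. The partner lists were chosen with earlier results of these data known. The p-values and list shares here and below are therefore a description and no test of the lists.

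Around the MRG proteins and Kat5, 13 of 16 NuA4/TIP60 genes were tested, and 1 of them (7.69%) was called, beside 20.5% of all genes. Only Dmap1, a subunit shared with the SRCAP remodeller, passed, and it was lower. It stood at 7.51 and 10.4 TPM in control and 3.30 and 2.37 TPM in DMSO-treated embryos, a log2 difference of -1.37 (standard error 0.34, adjusted p = 0.0388). The scaffold Trrap was at 20.7, 21.5, 26.4 and 20.5 TPM and the ATPase Ep400 at 15.4, 11.8, 13.6 and 12.1 TPM, and both overlapped between the groups. Mrgbp, the adaptor that tethers MRG proteins to the complex, was at 3.14, 1.82, 2.96 and 2.35 TPM and overlapped too. Without DMSO replicate 2, Dmap1 was not called and Actb was called higher, a gene listed at 1.09, 0.706, 8.58 and 0 TPM, which is low for the actin of most cells and makes its row doubtful. The list's median was 0.09. Of 9 other MRG partners, Sin3b was called higher and Rbbp4 lower, both of them subunits of the Sin3 deacetylase complex. They make 22.2% of the list, near the 20.5% of all genes. Sin3b went from 19.7 and 27.5 TPM to 49.1 and 48.8 TPM (log2 difference 1.04, standard error 0.29, adjusted p = 0.0484). Rbbp4 went from 64.1 and 64.8 TPM to 30.1 and 33.2 TPM (log2 difference -1.01, standard error 0.25, adjusted p = 0.0400), and 37.9% of its words are shared with other genes. Rbbp4 was not called under median-ratio scaling, under quantile normalization or without mitochondrial genes, Sin3b was not called with a pseudocount of 0.1, and neither was called with no trend of the variance or without DMSO replicate 2. The median of these 9 genes was 0.01.

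For Kat8, all 11 genes of the MSL and NSL complexes were tested, and 3 NSL genes were called lower. They make 27.3% of the list, beside 20.5% of all genes called and 14.1% called lower. Kansl3, a scaffold of NSL, was at 22.1 and 29.2 TPM in control and 5.79 and 7.04 TPM in DMSO-treated embryos (log2 difference -1.84, standard error 0.31, adjusted p = 0.0209). Kansl2 differed by -1.13 (adjusted p = 0.0481) and Mcrs1 by -1.09 (adjusted p = 0.0451), and both share a large part of their words with other genes (37.7% and 59.3%). The MSL subunit Msl3 stood at 30.2, 16.8, 76.2 and 40.8 TPM, above control in both DMSO libraries, with an adjusted p of 0.0731. The median of the list was -0.58, and under median-ratio scaling, with a pseudocount of 0.1, with no trend or without mitochondrial genes only Kansl3 was called. Under quantile normalization Kansl3 was called lower and Msl3 higher. Without DMSO replicate 2, Kansl3 and Mcrs1 were called lower and Kansl2 was not called.

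SAGA and ATAC, the complexes of Kat2a, had 24 of 25 genes tested, with 5 called lower, 1 higher and a median of -0.69. The 6 calls make 25.0% of the list, beside 20.5% of all genes. The widest of the lower genes was Mbip, an ATAC subunit, at 49.5 and 46.4 TPM in control and 11.6 and 13.8 TPM in DMSO-treated embryos (log2 difference -1.84, standard error 0.27, adjusted p = 0.0181). Atxn7, which anchors the deubiquitinase module of SAGA, went from 22.9 and 29.0 TPM to 9.06 and 7.76 TPM (log2 difference -1.51, standard error 0.30, adjusted p = 0.0250). Yeats2, the ATAC reader, differed by -1.46 (adjusted p = 0.0488), and the deubiquitinase Usp22 and the SAGA subunit Taf5l were the other genes called lower. Taf9b, a histone-fold subunit, was the gene called higher, from 9.87 and 4.44 TPM to 44.8 and 23.7 TPM (log2 difference 2.13, standard error 0.46, adjusted p = 0.0299). Kat14, the other acetyltransferase of ATAC, was at 40.2, 40.5, 18.3 and 30.1 TPM and was not called. The lower calls included genes of both complexes, but under quantile normalization the calls were balanced, with 2 lower (Mbip and Atxn7) and 2 higher (Taf9b and Eny2). With TPM rescaled without mitochondrial genes, Mbip and Atxn7 were called lower and Taf9b higher. Without DMSO replicate 2 it was Mbip, Usp22 and Dr1 that were called lower, with Taf9b higher.

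All 6 partners of HAT1 were tested, and Ipo4 and Rbbp4 were called lower, with a list median of -0.41, beside -0.09 over all genes. They make 33.3% of the list, beside 20.5% of all genes called and 14.1% called lower. Under median-ratio scaling, quantile normalization, no trend, without mitochondrial genes or without DMSO replicate 2, only Ipo4 was called. Ipo4, the importin that carries new histones H3 and H4 to the nucleus, went from 217.6 and 252.5 TPM to 62.2 and 88.0 TPM (log2 difference -1.65, standard error 0.28, adjusted p = 0.0211), although 57.7% of its words are shared with 1 other gene. Rbbp7, the histone-binding subunit of the HAT1 enzyme, was at 198.9, 199.6, 236.3 and 187.8 TPM and overlapped. The chaperone Nasp was at 392.6 and 458.0 TPM in control and 198.0 and 259.7 TPM in DMSO-treated embryos, with an adjusted p of 0.0547.

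Of the 12 tested partners of CBP, p300 and the p160 coactivators, Cited1, a CBP/p300-binding protein, was called, from 80.4 and 193.0 TPM to 10.8 and 32.2 TPM (log2 difference -2.67, standard error 0.59, adjusted p = 0.0311). This 1 call makes 8.33% of the genes tested in the list, beside 20.5% of all genes. The p160 relatives of Ncoa2 were not called. Ncoa1 was at 8.95, 7.01, 13.4 and 9.47 TPM (log2 difference 0.46, standard error 0.33), and Ncoa3 at 54.1, 42.6, 40.5 and 34.3 TPM (log2 difference -0.36, standard error 0.28). The median of the list was 0.26.

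Of 10 other acetyltransferases tested, 1 was called, beside 20.5% of all genes. Gtf3c4, a subunit of the RNA polymerase III factor TFIIIC, was called lower, from 27.4 and 26.4 TPM to 4.08 and 7.86 TPM (log2 difference -2.06, standard error 0.36, adjusted p = 0.0219). Kat6a was at 18.8, 17.7, 20.1 and 16.3 TPM, Kat6b at 40.5, 31.6, 34.3 and 16.7 TPM, and Kat7 at 8.59, 12.5, 10.0 and 7.41 TPM. All 3 of these MYST enzymes overlapped between the groups. Taf1 was at 40.6, 38.2, 23.5 and 16.4 TPM, Clock at 9.04, 3.68, 17.4 and 11.4 TPM, and Elp3 at 1.70, 0.923, 2.03 and 1.06 TPM, none of them called. The median of the list was -0.13. Of 12 genes of the MOZ/MORF and HBO1 complexes, to which Kat6a, Kat6b and Kat7 belong, limma called 0, beside 20.5% of all genes. Of the 12, 3 had an unadjusted limma p under 0.05, beside 4835 of the 12038 genes tested. The median of the list was -0.21.

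Of 5 inhibitors or binding partners that restrain acetyltransferases, Nupr1, a small stress-induced protein, was called lower, from 57.6 and 41.0 TPM to 3.07 and 6.69 TPM (log2 difference -3.15, standard error 0.40, adjusted p = 0.0181). Set, the histone-masking subunit of the INHAT complex, was at 1297 and 1125 TPM in control and 908.9 and 784.7 TPM in DMSO-treated embryos, with an adjusted p of 0.164. Of the words of Set, 38.1% are shared with other genes. Its near-identical copy Gm9531 was listed at 407.6, 462.2, 138 and 177.5 TPM, so the level of Set is uncertain. The 1 call makes 20% of the list, near the 20.5% of all genes, and the median of the 5 was -0.52.

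**Figure D4:**
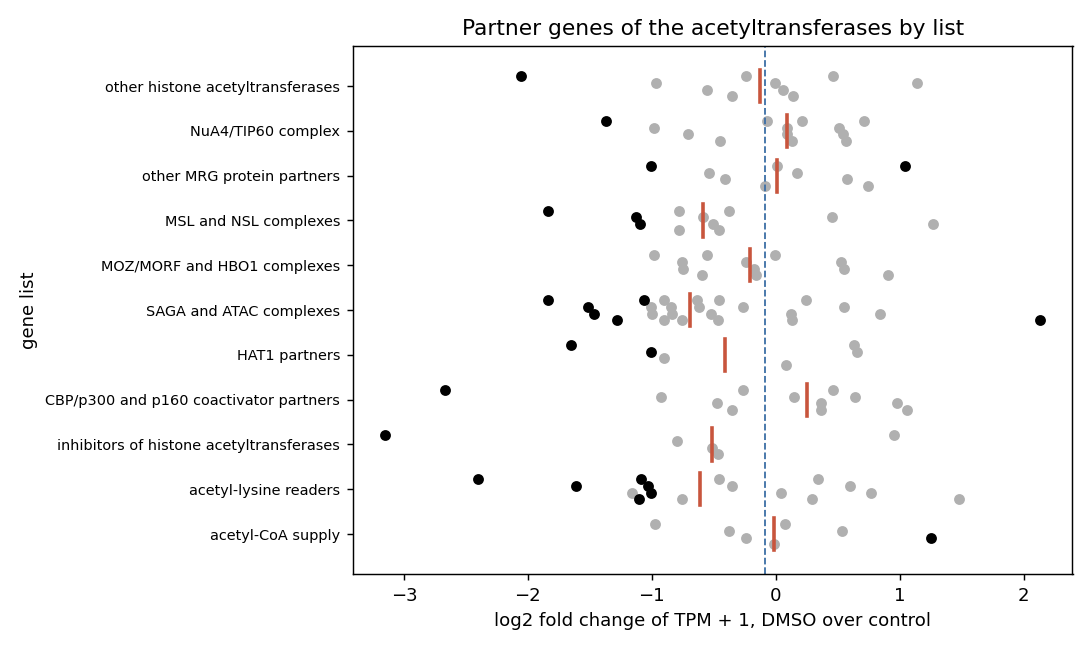
Each point is the log2 difference in TPM + 1 of a tested partner gene, DMSO over control, by gene list, with called genes in black and the others in grey, the list median as a red bar and the median of all genes tested (-0.09) as a dashed line. Most black points lie to the left, 20 genes lower against 3 higher when each gene is counted once, and the right-most is Taf9b at 2.13.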

How the data were processed

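RNA of pooled 2-cell embryos was sequenced in 2 control and 2 DMSO libraries made by amplification of cDNA from a low input. The authors deposited 1 table of TPM values for 30049 Ensembl genes, quantified with kallisto on mouse transcripts (mm10/GRCm38) and summed per gene with tximport. Reads that fit several transcripts are divided between them by estimation. The labels name both single-end and paired-end reads of 50 bases, and strand is not stated. TPM keeps no depth, so no counting error, detection floor or count test was given.

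Symbols and coordinates came from GENCODE M21 (29589 identifiers named, 460 not). limma 3.58.1 (R 4.3.3) was fitted to log2(TPM + 1) of genes averaging at least 1 TPM, using lmFit and eBayes with a trend but no replicate block, and p-values were Benjamini-Hochberg adjusted (threshold 0.05). The fit was tested on simulated data. Nothing states that the replicates were separate collections, so p-values measure the spread between these libraries only. Shared sequence was counted as 31-base words of protein-coding transcripts found, on either strand, in transcripts of other genes. A near-identical copy was a gene with at least 50% of its words, and at least 100, shared. Sequences were handled in Python 3.11.15 with Biopython 1.88.

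The 10 genes, the 11 partner lists and the 7 marker lists were chosen with earlier results of these data known. The text names all 10 genes, up to 4 called genes with the largest differences in each partner list, each list's catalytic subunits, and the 3 genes most like Morf4l2, Hat1 and Ncoa2. Other partner genes and Actg1 were named after their values had been seen. The alternatives were a pseudocount of 0.1, no filter or a mean of at least 5 TPM, no trend, median-ratio scaling, quantile normalization, near-identical copies summed, the replicate block and leaving out each library. Sums of Kat2b with Kat2b-ps and TPM rescaled without mitochondrial genes were added after results had been seen.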

Additional observations from a re-analysis of the deposited data

How the results depend on the processing

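The number of genes called depended strongly on the filter and on the number of libraries. Of all genes, 2470 were called (773 higher, 1697 lower). With no filter on low values limma called 0 of 22257 genes, 0 of the 10 genes and 0 partner genes, with 5368, 4 and 43 at an unadjusted p under 0.05. Leaving out a library gave 0 to 1883 genes, 0 to 3 of the 10 genes (3 without DMSO replicate 2) and 0 to 15 partner genes, where the remaining library of the group is assumed to vary like the other group. The other alternatives called between 2026 (no trend) and 2450 genes (mean of at least 5 TPM), apart from the replicate block. Under quantile normalization the split was 1076 higher and 1121 lower, and under median-ratio scaling 949 and 1262. The scalings moved the median of all genes by at most 0.09. For partner genes the count of 23 became 13 with no trend, 15 under quantile normalization and 14 without mitochondrial genes. The cause of these changes was not tested.

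Same-numbered libraries deviated together over the 12038 genes (r = 0.354), but with 2 numbers, and no label that gives them a meaning, the libraries share only a number. With the number as a replicate block, 5132 genes, 5 of the 10 genes (Morf4l1 added, at -0.53) and 52 partner genes were called.

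Of 110 repeats for single genes, 87 kept direction and call, 18 lost the call, 1 gained it and 4 reversed. Ep300 became -0.26 without control replicate 1 and -0.25 without DMSO replicate 2, Crebbp became -0.13 without DMSO replicate 1, and Kat2b became -0.66 when summed with Kat2b-ps. Without single libraries Ep300 ranged from -0.26 to 0.42 and Crebbp from -0.13 to 0.84. Over all alternatives Morf4l2 lay between 3.59 and 4.32, Hat1 between -2.10 and -1.41, Kat2a between -1.23 and -0.98 and Ncoa2 between 1.29 and 2.03. Kat2a was not called under quantile normalization (-0.98) or without DMSO replicate 2 (-1.23), nor was Ncoa2 tested at a mean of at least 5 TPM. Depth is not known from TPM, which limits what can be said of Kat2b, Ncoa2 and the control level of Morf4l2.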

Other observations

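Some proteins read acetylated lysines through bromodomains or YEATS domains. Of 16 of their genes tested, 6 were called by limma, all lower in DMSO-treated embryos. They make 37.5% of the list, beside 20.5% of all genes called and 14.1% called lower. The median log2 difference was -0.61 beside -0.09. This list too was chosen with earlier results known. Without control replicate 1, control replicate 2 or DMSO replicate 1, limma called 0 genes of the whole table (3745, 2602 and 3078 had an unadjusted p under 0.05), and under quantile normalization 2 of these genes were called, both lower. Without DMSO replicate 2, Brd9 and Bptf were called lower and Mllt3 higher, and without mitochondrial genes Brd3, Brd9 and Cecr2 were called lower. Over all genes, 2197 of 12038 were called under quantile normalization and 2136 of 12025 without mitochondrial genes. With no trend 3 of the 16 were called, beside 2026 of 12038, and under median-ratio scaling 5, beside 2211 of 12038. The larger share in the main fit thus depends on the setting. Brd9, a subunit of the non-canonical BAF remodeller, was at 19.0 and 20.96 TPM in control and 2.74 and 3.20 TPM in DMSO-treated embryos (log2 difference -2.40, standard error 0.30, limma adjusted p = 0.0181). Brd3, a BET protein, went from 22.5 and 35.3 TPM to 9.07 and 8.09 TPM (-1.61, limma adjusted p = 0.0271). Cecr2 went from 243.5 and 231.5 TPM to 106.0 and 114.6 TPM (-1.10, limma adjusted p = 0.0300), and Bptf, the reader of the NURF remodeller, from 119.2 and 116.0 TPM to 46.5 and 64.9 TPM (-1.09, limma adjusted p = 0.0404). Baz1a and Baz2b were the other genes called. Brd2, another BET protein, was at 224.7, 152.5, 263.7 and 209.7 TPM and was not called. Brdt, the BET protein of germ cells, was at 310.7, 170.4, 548.0 and 281.8 TPM and overlapped.

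Of 7 tested genes that supply acetyl-CoA, Pdhx, a structural subunit of the pyruvate dehydrogenase complex, was called higher, from 17.7 and 16.3 TPM to 54.4 and 32.1 TPM (log2 difference 1.25, standard error 0.33, limma adjusted p = 0.0448). It was not called with a pseudocount of 0.1, with no trend, with no filter, or without control replicate 1, control replicate 2 or DMSO replicate 1. The catalytic subunit gene Pdha1 was at 58.3 and 51.4 TPM in control and 22.9 and 32.7 TPM in DMSO-treated embryos (-0.97, limma adjusted p = 0.0586) and was not called. The other subunits overlapped between the groups, Pdhb at 146.4, 108.7, 144.2 and 122.6 TPM and Dlat at 4.47, 4.16, 11.6 and 3.71 TPM. Acly, which makes acetyl-CoA outside mitochondria, was at 14.1, 11.6, 14.2 and 11.3 TPM and overlapped. The 1 call makes 14.3% of the genes tested in the list, beside 20.5% of all genes called and 6.42% called higher. The median of the list was -0.01.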
